A study of Mus musculus with 12 samples.

Results

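The miR-29 family was represented on the panel by 3 probes, mmu-miR-29a, mmu-miR-29b and mmu-miR-29c. They were taken by name from the endogenous class of the deposited raw count table. They are 3 of 566 mouse miRNA probes, and all 3 were among the 195 miRNAs bright enough to be tested. The panel was a NanoString nCounter mouse miRNA assay, in which fluorescent barcodes bound to single molecules are counted without amplification.

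The RNA came from mHypoE-46 cells, an immortalised neuronal line derived from male embryonic mouse hypothalamus and recorded as expressing neuropeptide Y and agouti-related peptide. The 4 groups were 100 nM insulin for 24 h, vehicle for 24 h, 100 nM insulin for 4 h and vehicle for 4 h, with 3 libraries each. The vehicle was phosphate buffered saline, and all groups were kept in the same medium with glucose and fetal bovine serum. The submitters describe the replicates as independent repeats of the experiment, and set 24 h against 4 h to compare cells after and before insulin resistance develops. All libraries come from 1 immortalised line, so the spread between them is a spread between cultures of that line.

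A microRNA guides the silencing complex to messenger RNAs through base pairing at its seed, the short stretch near its 5′ end. The miR-29 family is known for repressing collagens and other matrix genes and DNA methyltransferases. In mouse adipocytes and in hepatocytes its members are known to dampen insulin signalling, and in maturing mouse neurons miR-29b is known to restrain cell-death genes.

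The 3 mature strands are shown because they carry the same seed and differ by few bases, which bears on how far 3 probes can be read apart. The sequences are from RefSeq on the GRCm38.p6 build, written 5′ to 3′, with the seed (bases 2 to 8) in capitals.
mmu-miR-29a-3p: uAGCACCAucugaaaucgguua
mmu-miR-29b-3p: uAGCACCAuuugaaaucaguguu
mmu-miR-29c-3p: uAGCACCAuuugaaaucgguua
Of 1738 mature mouse entries in the RefSeq table, 4 carry this seed, under 3 names, and all of them are miR-29 strands. Counting positions from 1 at the 5′ end, miR-29a and miR-29c differ by the single substitution C10U and are identical at 21 of 22 positions. Between miR-29a and miR-29b the substitutions are C10U, G18A, U21G and A22U. Between miR-29b and miR-29c they are A18G, G21U and U22A.

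The family is made from a pair of genomic clusters. On chromosome 6, Mir29a (chr6:31062660-31062747, minus strand) and Mir29b-1 (chr6:31063023-31063093, minus strand) lie 275 bases apart. On chromosome 1, Mir29b-2 (chr1:195037040-195037120, plus strand) and Mir29c (chr1:195037547-195037634, plus strand) lie 426 bases apart. The hairpins of the miR-29b loci are shown because they hold the same mature strand, in capitals here.
Mir29b-1: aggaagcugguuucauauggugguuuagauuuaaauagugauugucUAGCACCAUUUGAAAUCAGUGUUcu
Mir29b-2: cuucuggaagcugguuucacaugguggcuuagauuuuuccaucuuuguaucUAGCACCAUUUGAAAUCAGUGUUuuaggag
The miR-29b count therefore sums both clusters, while miR-29a comes from chromosome 6 alone and miR-29c from chromosome 1 alone. The probe target sequences were not used here, and cross-hybridisation between miR-29a and miR-29c was not tested.

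Counts of mouse miRNAs totalled 142158 to 379809 per library. The background threshold, the mean of a library's negative controls plus 2 SD, lay at 38.9 to 124 counts. Among 9 neuronal markers, miR-9 exceeded it in 12 of 12 libraries, miR-132 and miR-218 in 10 each, miR-128 in 8 and miR-7a in 5. In no library was it exceeded by miR-124, a defining miRNA of mature neurons, or by miR-129-5p, miR-137 or miR-138. Libraries of 4 h occupied lanes 1 to 6 of the instrument and those of 24 h lanes 7 to 12, so time and lane block cannot be told apart. Within each time the lane number runs with the replicate number, so these cannot be told apart either.

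All 3 members were measured well above background in every library. Raw counts were 5540 to 11971 for miR-29a, 2594 to 26700 for miR-29b and 262 to 995 for miR-29c. These counts lay 62.3 to 169 times, 33.7 to 215 times and 3.37 to 8.01 times above the library's threshold. Among the mouse miRNAs of a library, miR-29b was the third most counted in all 24 h libraries and held places 5 to 14 in 4 h libraries. The place of miR-29a was 5 to 9 over all 12 libraries, and that of miR-29c was 40 to 61. Probes may capture their targets with unequal efficiency, so levels of different members are given side by side as counts only.

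Together the family took 10.4% to 11.4% of all mouse miRNA counts in 24 h libraries, against 5.80% to 8.02% in 4 h libraries. The mean share was 10.9% ± 0.449 at 24 h and 7.02% ± 0.977 at 4 h (SD, n = 6 each). The ranges did not overlap, and how many other miRNAs were separated on this scale was not counted. Of the family's counts, miR-29b made up 53.8% to 68.3% at 24 h and 30.5% to 56.9% at 4 h.

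Levels are given in CPM, the count scaled to library depth, after edgeR's trimmed mean scaling of the libraries (TMM). For miR-29b, replicates 1, 2 and 3 had 70746, 94699 and 79451 CPM in insulin at 24 h and 66828, 85175 and 81055 CPM in vehicle at 24 h. In the 4 h libraries they had 20567, 36935 and 53399 CPM in insulin and 16415, 26820 and 47631 CPM in vehicle. Every 24 h library was thus above every 4 h library, while insulin and vehicle overlapped at both times. Insulin lay fully above vehicle for 4.1% of tested miRNAs at 24 h and 2.56% at 4 h, and fully below for 2.05% and 2.56%. The 4 h libraries were also the more scattered, with a mean of 36967 ± 16416 CPM in insulin and 30289 ± 15895 CPM in vehicle, against 81632 ± 12125 and 77686 ± 9627 CPM in insulin and vehicle at 24 h (SD, n = 3 each).

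For miR-29c, the replicates had 2438, 3529 and 2998 CPM in insulin at 24 h and 2155, 2930 and 2543 CPM in vehicle at 24 h. At 4 h they had 1498, 1637 and 2167 CPM in insulin and 1658, 1590 and 1927 CPM in vehicle. Within each treatment the 24 h libraries lay above the 4 h libraries, which in insulin held for 10.3% of tested miRNAs (8.72% lay fully below). Over both treatments the CPM ranges touched, because the lowest 24 h library (vehicle, replicate 1) fell just under the highest 4 h library (insulin, replicate 3). As a share of all mouse miRNA counts the ranges did not overlap, with 0.194% to 0.293% at 24 h and 0.158% to 0.184% at 4 h. How many tested miRNAs were separated on that scale was not counted, so this separation has no background beside it.

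For miR-29a, the replicates had 58255, 42459 and 33918 CPM in insulin at 24 h and 47155, 40088 and 40891 CPM in vehicle at 24 h. At 4 h they had 27655, 39005 and 38317 CPM in insulin and 35778, 33473 and 38196 CPM in vehicle. The insulin groups held both the highest and the lowest library, and 24 h and 4 h overlapped in insulin. In vehicle all 24 h libraries lay above all 4 h libraries in CPM, as they did for miR-29b and miR-29c. In CPM 11.8% of the tested miRNAs were separated in this direction in vehicle and 14.4% in the opposite one. For miR-29a this depended on the scaling. As a share of all mouse miRNA counts its vehicle libraries overlapped, with 3.55% to 4.29% at 24 h and 3.49% to 3.98% at 4 h.

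**Figure D1:**
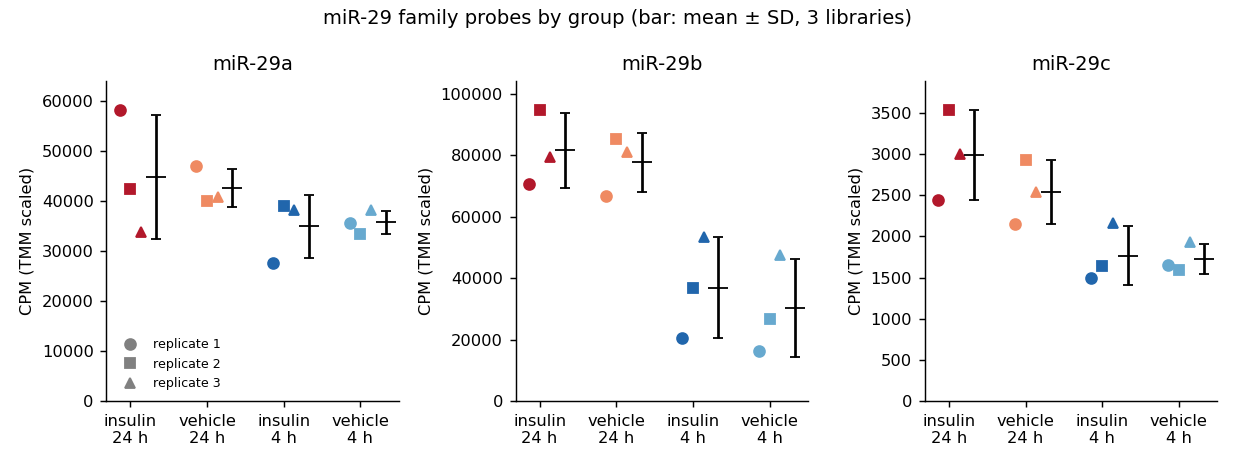
TMM-scaled CPM of each miR-29 probe (vertical axes, linear, from 0) in the 12 libraries by group, with symbols for replicates and bars for mean ± SD of 3 libraries. For miR-29b every 24 h library (66828 CPM or more) lies above every 4 h library (53399 CPM or less), and insulin and vehicle overlap at both times for all 3 probes.

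No member passed the test for a change with insulin at either time. In edgeR's quasi-likelihood test over 195 miRNAs, with Benjamini-Hochberg adjustment, insulin against vehicle at 24 h gave log2 fold changes of 0.24 for miR-29c (SE 0.20, 95% interval -0.18 to 0.66), 0.07 for miR-29b (SE 0.36) and 0.07 for miR-29a (SE 0.23). The adjusted p was 0.962 for all 3. At 4 h the log2 fold changes were 0.29 for miR-29b (SE 0.36, 95% interval -0.48 to 1.06), 0.03 for miR-29c (SE 0.20) and -0.03 for miR-29a (SE 0.23), with adjusted p-values of 0.971 to 0.976. The edgeR test called 0% of the tested miRNAs at 24 h and 0% at 4 h, where 4 and 3 miRNAs had an unadjusted p under 0.05. DESeq2 and limma also called 0 at both times. The intervals allow miR-29b changes with insulin between 0.616-fold and 1.79-fold at 24 h, and between 0.715-fold and 2.08-fold at 4 h. Only larger effects are outside what this fit, which takes no pairing of replicates, allows. Another model gives other limits. With the lane number as a covariate, the log2 interval for miR-29b at 24 h was -0.70 to 0.43.

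The stability of direction of the small insulin values depended on the member and the time. Over 12 alternative processing choices, the sign was kept in 12 for miR-29b at 4 h and in 11 for miR-29c at 24 h. It was kept in 6 for miR-29b at 24 h and in 6 for miR-29c at 4 h. For miR-29a it was kept in 7 at 24 h and in 11 at 4 h. Without insulin 4 h replicate 3, the miR-29b value at 4 h was -0.075. At 4 h, miR-29b was higher in insulin than in the same-numbered vehicle library in all 3 replicates, by 0.33, 0.46 and 0.16 on the log2 scale. Each of those insulin libraries sat 1 lane after its vehicle partner, and with the lane number as a covariate the value was 0.09 (95% interval -0.47 to 0.66). Within each group that covariate is equally a trend over replicate number. At 24 h, miR-29c was higher in insulin in all 3 such replicates, by 0.18, 0.27 and 0.24 on the log2 scale. Its SE above comes from the fit without pairing, and a test paired at 24 h alone was not run. The miR-29c value was 0.15 with the lane covariate. It was -0.17 when libraries were scaled to the housekeeping mRNAs, a scaling that moved the median of all miRNAs to -0.33. For miR-29a the same-numbered differences had both signs at both times.

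No member passed the test for a different insulin response at the 2 times. The difference of the 24 h and 4 h responses was 0.20 for miR-29c (SE 0.28), 0.10 for miR-29a (SE 0.32) and -0.22 for miR-29b (SE 0.51), with an edgeR adjusted p of 0.991 for each. That comparison called 0% of the tested miRNAs, and 0 had an unadjusted p under 0.05; DESeq2 and limma called 0 as well. The 95% interval for miR-29b ran from -1.31 to 0.87.

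**Figure D2:**
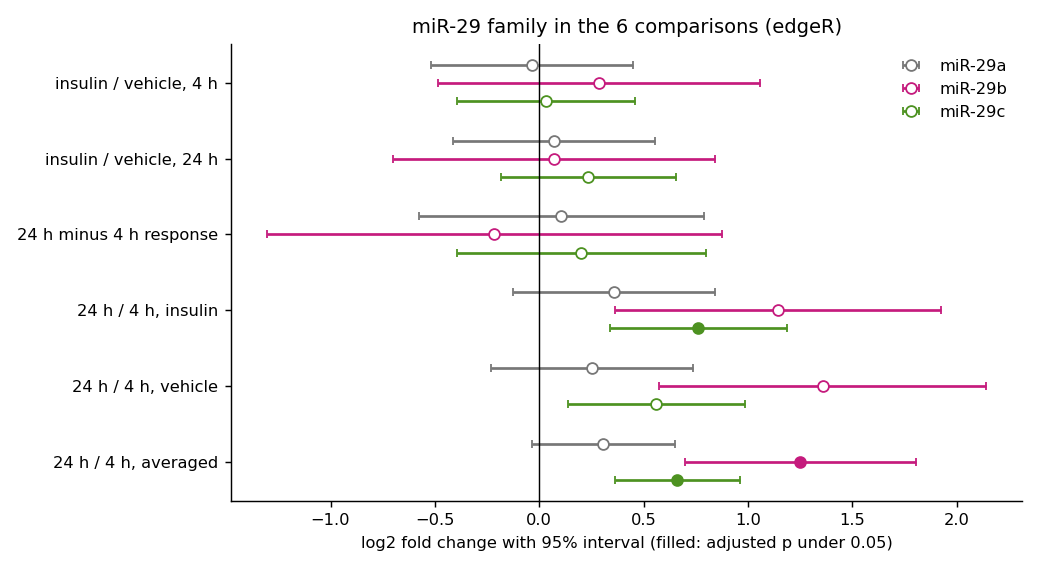
Log2 fold changes from edgeR with 95% intervals (horizontal axis) for miR-29a, miR-29b and miR-29c in the 6 comparisons, with filled points for an adjusted p under 0.05. The insulin values cross 0 for all 3 probes, while miR-29b and miR-29c are above 0 in each comparison of 24 h with 4 h.

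Between the times, miR-29b and miR-29c were higher at 24 h, and miR-29a did not pass the test. Averaged over both treatments, miR-29b had 79659 ± 10027 CPM at 24 h and 33628 ± 14908 CPM at 4 h (SD, n = 6 each). This was 2.38-fold, or 1.25 on the log2 scale with an SE of 0.26 and a 95% interval of 0.70 to 1.80, and the edgeR adjusted p was 0.00726. Of the 195 tested miRNAs it had the highest log2 fold change in this comparison. For miR-29c, 2766 ± 489 CPM at 24 h stood against 1746 ± 251 CPM at 4 h, a log2 fold change of 0.66 (SE 0.14, 95% interval 0.36 to 0.96) with the same adjusted p. For miR-29a, 43794 ± 8269 CPM at 24 h stood against 35404 ± 4317 CPM at 4 h, a log2 fold change of 0.31 (SE 0.16, 95% interval -0.04 to 0.65, adjusted p = 0.230).

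The background to these 2 of 3 calls is that 15.4% of the tested miRNAs were called in the averaged comparison, 9.74% higher and 5.64% lower, with a median log2 fold change of 0.04. Full separation of the 6 libraries of 24 h above the 6 of 4 h, which miR-29b showed, was seen for 3.08% of tested miRNAs, and full separation below for 5.13%. Both calls held when any single library was left out. The miR-29c call was lost with scaling to positive controls (0.55, edgeR adjusted p = 0.0720) and with no filter on low counts (0.64, adjusted p = 0.0718). With scaling to housekeeping mRNAs, where the median of all miRNAs was -0.33, miR-29b had 0.86 (edgeR adjusted p = 0.0738), miR-29c 0.28 (adjusted p = 0.269) and miR-29a 0.01.

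Within insulin alone, the log2 fold change of 24 h over 4 h was 1.14 for miR-29b (SE 0.37, edgeR adjusted p = 0.0872), 0.76 for miR-29c (SE 0.20, adjusted p = 0.0469) and 0.36 for miR-29a (SE 0.23, adjusted p = 0.461). Here miR-29c was the only member called, and 3.59% of the tested miRNAs were (1.54% higher and 2.05% lower). That call was lost without insulin 24 h replicate 2 or 3, insulin 4 h replicate 1 or 2, vehicle 4 h replicate 1 or 2, or any 1 vehicle 24 h library. Across the 12 fits that each left out 1 library, its log2 fold change was 0.62 to 0.93, and 3 of them kept the call. With the lane number as a covariate it was 0.29 (edgeR adjusted p = 0.955). Within vehicle alone the values were 1.36 for miR-29b (SE 0.37, adjusted p = 0.143), 0.56 for miR-29c (SE 0.20, adjusted p = 0.151) and 0.25 for miR-29a (SE 0.23, adjusted p = 0.628). The edgeR test called 0% of miRNAs in vehicle, 31 had an unadjusted p under 0.05, limma called 0 and DESeq2 called 15. The miR-29b call was gained within insulin without insulin 4 h replicate 3 (1.51, edgeR adjusted p = 0.0427) or vehicle 4 h replicate 3 (1.14, adjusted p = 0.0425), and within vehicle without vehicle 4 h replicate 3 (1.85, adjusted p = 0.0181).

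The miR-29b level moved with lane number inside the time blocks as well as between them. In lanes 1 to 6, the 4 h libraries, it was 16415, 20567, 26820, 36935, 47631 and 53399 CPM. In lanes 7 to 12, the 24 h libraries, it was 66828, 70746, 85175, 94699, 81055 and 79451 CPM. Each lane from 2 to 10 was above the lane before it, with vehicle and insulin libraries alternating along that run. Thus the highest 4 h library was 3.25-fold the lowest, and the highest 24 h library was 1.42-fold the lowest. The 2.38-fold difference fitted between the times is one of group means, so it is not on the same footing as these ranges.

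A fit with a lane term beside the 4 groups, chosen after this order was seen, gave miR-29b a slope of 0.21 log2 units per lane (SE 0.06, edgeR adjusted p = 0.0944). That was the third highest slope of 195 miRNAs, whose median was -0.003. The slopes were 0.08 for miR-29c (SE 0.04) and -0.03 for miR-29a (SE 0.05). In that fit the averaged time difference of miR-29b was 0.08 (SE 0.37, 95% interval -0.70 to 0.86, edgeR adjusted p = 0.972), that of miR-29c 0.18 (SE 0.27, adjusted p = 0.972) and that of miR-29a 0.47 (SE 0.32, adjusted p = 0.967). No miRNA of the 195 was called for time in it, with 10 at an unadjusted p under 0.05. Within each group lane number and replicate number rise together, so the slopes in that fit are equally trends over replicate number. Its time values carry those slopes across the 2 lane blocks, and whether the slopes run on between blocks was not tested. Because 2 lane blocks stand for the 2 times, these values have wide intervals. Culture time and lane position cannot be told apart for miR-29b or miR-29c.

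**Figure D3:**
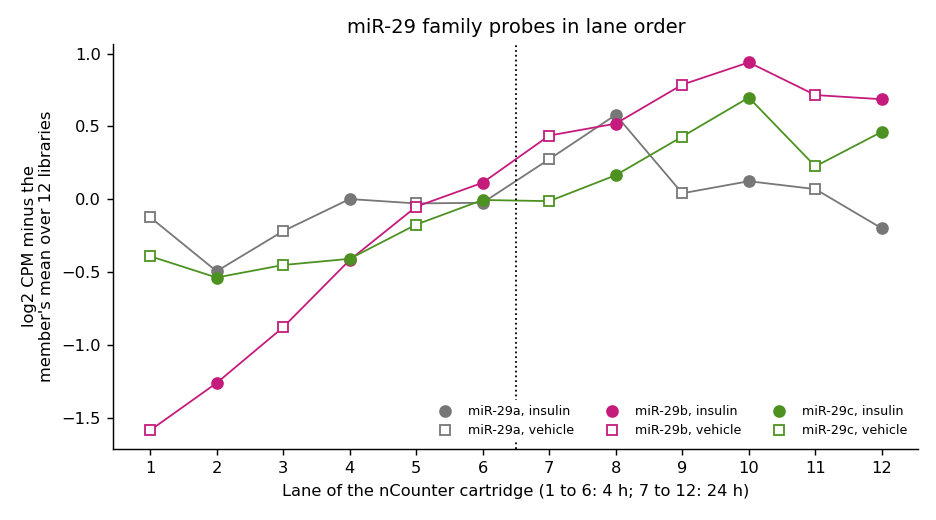
Log2 CPM of each miR-29 probe minus its mean over the 12 libraries (vertical axis) against lane number, with filled circles for insulin, open squares for vehicle and a dotted line between the 4 h and 24 h blocks. The miR-29b level climbs from lane 1 to lane 10 through both blocks, while miR-29a shows no such climb.

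Ratios between members within a library need no scaling between libraries and compare the members' changes directly. For miR-29b over miR-29a, the count ratios of replicates 1, 2 and 3 were 1.21, 2.23 and 2.34 in insulin at 24 h and 1.42, 2.12 and 1.98 in vehicle at 24 h. In 4 h libraries they were 0.744, 0.947 and 1.39 in insulin and 0.459, 0.801 and 1.25 in vehicle. So miR-29b was counted more than miR-29a in all 24 h libraries, whereas at 4 h this held for replicate 3 alone in each treatment. The mean log2 ratio was higher at 24 h than at 4 h by 1.07, or 2.09-fold (exact permutation test within treatments, two-sided, p = 0.015, adjusted p = 0.045 over 6 ratio tests). It was higher in 6 of 6 same-numbered pairs, although the ranges of 24 h and 4 h overlapped.

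For miR-29b over miR-29c, whose genes partly share a cluster, the ratios were 29.0, 26.8 and 26.5 in insulin at 24 h and 31.0, 29.1 and 31.9 in vehicle at 24 h. At 4 h they were 13.7, 22.6 and 24.6 in insulin and 9.90, 16.9 and 24.7 in vehicle. All 24 h libraries lay above all 4 h libraries. The difference of the log2 ratio was 0.71, or 1.63-fold (exact permutation p = 0.005, the smallest this design can give, adjusted p = 0.03), again in 6 of 6 pairs. Thus by this test miR-29b and miR-29c, though both higher at 24 h, did not differ between times by the same factor. The test takes no account of lane or replicate order, and within the 4 h libraries alone the ratio ran from 9.90 to 24.7.

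For miR-29c over miR-29a, the ratios were 0.0418, 0.0831 and 0.0884 in insulin at 24 h and 0.0457, 0.0731 and 0.0622 in vehicle at 24 h. At 4 h they were 0.0542, 0.0420 and 0.0565 in insulin and 0.0463, 0.0475 and 0.0504 in vehicle. Replicate 1 of both 24 h groups lay within or below the 4 h range, and the other 24 h libraries lay above it. The log2 difference of 0.36 did not pass (exact permutation p = 0.13, adjusted p = 0.26), with 4 of 6 pairs higher at 24 h. Without insulin 24 h replicate 1 it was 0.53 with an exact permutation adjusted p of 0.04.

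The ratios also moved with lane. From lane 2 to lane 7 the ratio of miR-29b over miR-29a was higher at each lane than at the one before. The ratio of miR-29b over miR-29c was higher at each of lanes 2 to 5 than at the one before, and from lane 7 on it showed no such order. With 1 library left out, both differences kept their direction in all 12 cases, while fewer arrangements were left to the exact permutation test. The miR-29b over miR-29a difference then missed the threshold in 8 cases, with log2 differences of 0.88 to 1.15 in those and adjusted p-values of 0.06 to 0.105. They were insulin 24 h replicates 2 and 3, the 3 vehicle 24 h libraries, insulin 4 h replicates 1 and 2 and vehicle 4 h replicate 1. The miR-29b over miR-29c difference missed it in 5 cases, with log2 differences of 0.69 to 0.72, close to the 0.71 over all libraries, and exact permutation adjusted p-values of 0.06 to 0.105. These were the cases without insulin 24 h replicate 2 or 3 or any 1 vehicle 24 h library.

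Between insulin and vehicle, no ratio passed the test. In exact permutation tests within times the log2 differences were 0.20 for miR-29b over miR-29a (p = 0.49, adjusted p = 0.6), 0.13 for miR-29c over miR-29a (p = 0.5, adjusted p = 0.6) and 0.07 for miR-29b over miR-29c (p = 0.77, adjusted p = 0.77). The last of these had opposite signs at the times, -0.16 at 24 h and 0.30 at 4 h. At 24 h its 3 insulin libraries all lay below the 3 vehicle libraries, 26.5 to 29.0 against 29.1 to 31.9, a comparison of 3 with 3 in which an exact permutation test cannot go below 0.10.

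**Figure D4:**
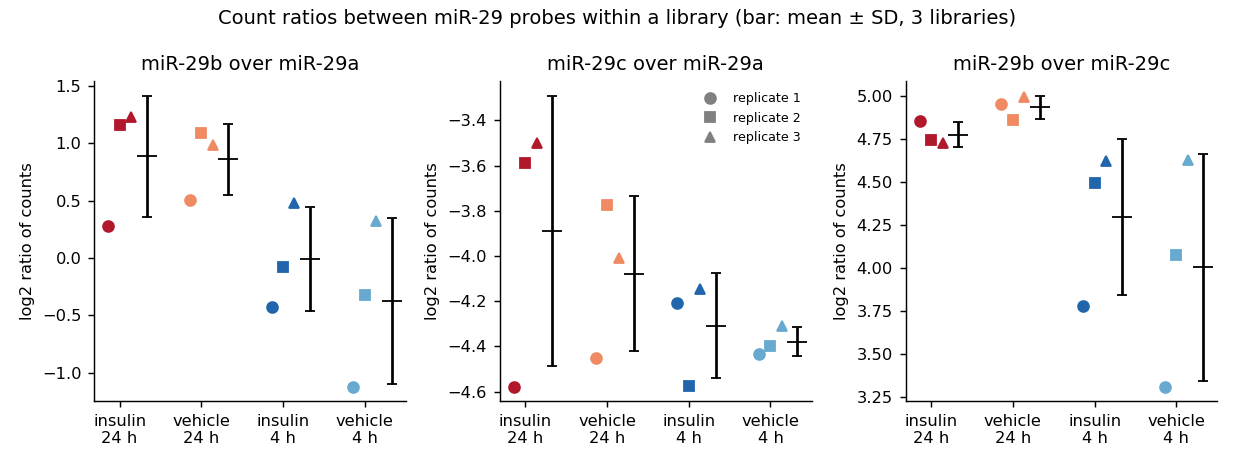
Log2 ratios of raw counts between miR-29 probes within a library (vertical axes) by group, with symbols for replicates and bars for mean ± SD of 3 libraries. The ratio of miR-29b over miR-29c is higher in all 24 h libraries than in any 4 h library, and replicate 1 has the lowest miR-29b over miR-29a ratio in each group.

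The members were unequally coupled across the 12 libraries. Pearson's r of log2 CPM was 0.90 for miR-29b with miR-29c, 0.60 for miR-29a with miR-29b and 0.45 for miR-29a with miR-29c. After removal of the group means these were 0.71, 0.28 and -0.12. These are descriptions over libraries that share time, lane order and scaling. By the clusters, miR-29b is encoded beside both miR-29a and miR-29c, and of these pairs the one from chromosome 1 had the higher r. That difference was not tested, and neither was cross-hybridisation between the probes.

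The tested miRNAs most like each member were found by the same correlation over 12 libraries, among 192 others. Nearest to miR-29b were miR-322 (r = 0.98), miR-16 (r = 0.98) and the joint probe for miR-106a and miR-17 (r = 0.98), against a median r of -0.03 over all 192. miR-16 and miR-322 belong to a seed family known for restraining cell-cycle genes, and miR-17 and miR-106a to clusters known for promoting proliferation. After removal of group means, r with miR-29b was 0.99 for both miR-322 and miR-16 and 0.95 for the joint probe, so they followed its differences between replicates and lanes as well. Their log2 fold changes of 24 h over 4 h were 1.02 (SE 0.29, edgeR adjusted p = 0.0278), 0.94 (SE 0.27, adjusted p = 0.0284) and 0.82 (SE 0.18, adjusted p = 0.00726). Their levels at 24 h and 4 h averaged 2365 and 1176 CPM for miR-322, and 60071 and 31318 CPM for miR-16. The mature strands of these neighbours are shown to set their seeds, in capitals, beside that of miR-29.
mmu-miR-16-5p: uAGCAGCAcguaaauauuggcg
mmu-miR-322-5p: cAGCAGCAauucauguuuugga
They share a seed with each other and not with miR-29. Their content of G and C is 45.5% for miR-16 and 40.9% for miR-322, against 34.8% for miR-29b, 36.4% for miR-29c and 40.9% for miR-29a.

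Nearest to miR-29c were let-7d (r = 0.95), miR-296-5p (r = 0.93) and the miR-106a and miR-17 probe (r = 0.92), against a median of 0.06. Their log2 fold changes of 24 h over 4 h were 0.67, 1.03 and 0.82, with edgeR adjusted p-values of 0.0278, 0.0112 and 0.00726. let-7d belongs to a family of near-identical members, so its own value is uncertain. Nearest to miR-29a were miR-151-5p (r = 0.82), let-7f (r = 0.80) and miR-23a (r = 0.80), against a median of 0.05. None of these 3 was called between the times, with log2 fold changes of 0.15, 0.43 and 0.34 and edgeR adjusted p-values of 0.632, 0.304 and 0.200.

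Among 56 other miRNAs with reported roles in insulin signalling or glucose metabolism, 42 were tested. For insulin against vehicle, the edgeR test called 0 of them at 24 h and 0 at 4 h. Their median log2 fold change was 0.09 at 24 h, against 0.06 over all tested miRNAs, and 0.06 at 4 h, against 0.01. The smallest p in each direction belonged to miR-1983 (0.54, SE 0.19) and miR-33 (-0.32, SE 0.16) at 24 h, and to miR-24 (0.39, SE 0.18) and miR-181a (-0.26, SE 0.16) at 4 h. For the difference of the responses the edgeR test called 0, with a median of 0.01 against 0.05, and miR-378 (0.39, SE 0.22) and miR-26a (-0.40, SE 0.25) had the smallest p in each direction. miR-1983 entered this list from knowledge of this study and is no independent evidence.

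Between the times, averaged over treatments, 5 of these 42 were higher and 5 lower at 24 h, 23.8% against 15.4% of all tested miRNAs, so the list held calls in both directions. The higher ones were miR-16 (0.94), let-7e (0.72), let-7d (0.67), miR-221 (0.63) and miR-1983 (0.49). The lower ones were miR-223 (-2.78), miR-26a (-0.71), miR-145 (-0.53), miR-126-3p (-0.44) and miR-96 (-0.44). edgeR adjusted p-values of these 10 were 0.00726 to 0.0409. Within insulin, miR-26a (-0.91, edgeR adjusted p = 0.0254) and miR-223 (-2.90, adjusted p = 0.0469) were lower at 24 h and 0 were higher. These were 4.76% of the 42, close to the 3.59% called among all tested miRNAs. Within vehicle 0 of 42 were called, with 24 above 0, against 0 called and 108 above 0 of all 195. Each of the 5 higher ones had a lower averaged log2 fold change than miR-29b (1.25), as had every other tested miRNA. The lane limit given for miR-29b applies to these calls too, because of the lane layout. All 4 h libraries sat in lanes 1 to 6 and all 24 h libraries in lanes 7 to 12. With the lane term 0 miRNAs were called for time. That term overlaps with time, so this outcome cannot decide between lane and time for these calls.

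Markers of other cell types were followed beside the family. Of 10 glial and mesenchymal markers, 4 were above threshold in all 12 libraries: miR-143, miR-145, miR-23a and miR-27a. In none were 5: miR-219, miR-338-3p, miR-199a-3p, miR-199a-5p and miR-214. The other, miR-338-5p, was above it in 11. The 10 summed to 2.77% to 3.07% of counts at 24 h and 3.12% to 3.77% at 4 h. Of 4 liver and muscle markers, miR-133a was above threshold in 10 libraries, miR-206 in 5, and miR-1 and miR-122 in none. Of 6 blood markers 5 were above threshold in no library, and the list summed to 0.0777% to 0.134% at 24 h and 0.164% to 0.608% at 4 h. Their decrease at 24 h came with miR-223, a myeloid miRNA, and the part of serum or other cells in the family's values was not tested. The 9 neuronal markers summed to 0.734% to 0.869% at 24 h and 0.818% to 1.08% at 4 h, and 4 of them were above threshold in no library. In such bulk RNA, fewer cells of a kind and less RNA per cell cannot be told apart.

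**Figure D5:**
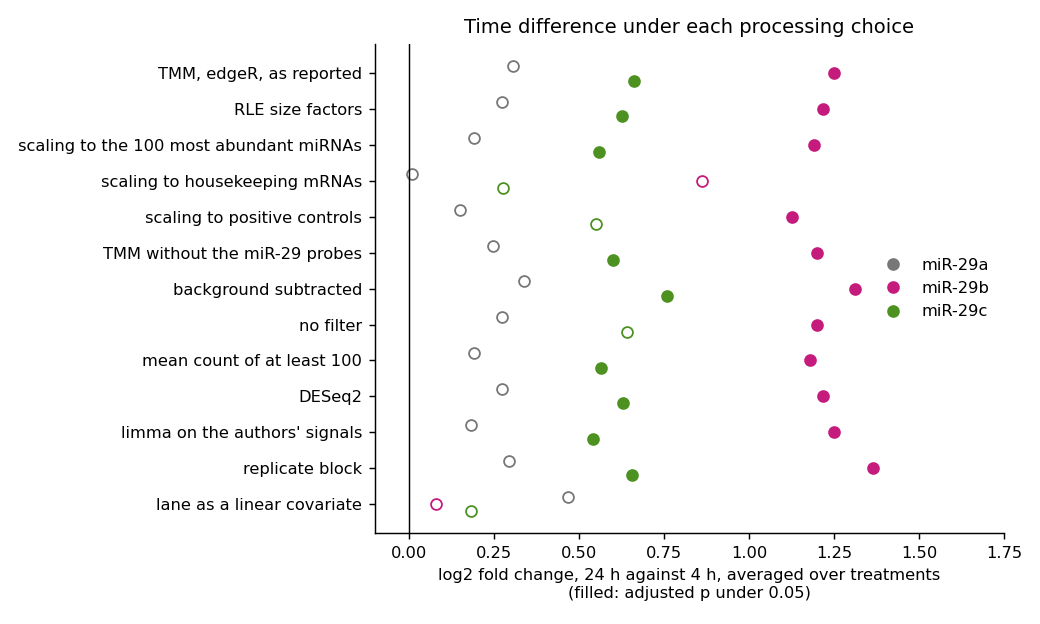
Log2 fold change of 24 h over 4 h, averaged over treatments (horizontal axis), for each miR-29 probe under each processing choice, with filled points for an adjusted p under 0.05. The miR-29b value stays between 0.86 and 1.36 except with lane as a covariate, where it is 0.08.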

How the data were processed

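The authors deposited raw barcode counts for 620 probes and 12 libraries. The unit was taken to be expected counts, because per the file headers instrument values that are not whole share them; every probe value was whole, so rounding changed nothing and the tests planned for plain counts were used. A second table of theirs holds a processed signal; per its deposited values, each mouse miRNA signal is the raw count times 1 factor per library. This factor matched scaling to the geometric mean of the 100 most abundant miRNAs (gap 0.000414%).

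A mouse miRNA was tested when 3 or more of 12 libraries exceeded their negative control mean plus 2 SD, which kept 195. Counts were fitted with edgeR 4.0.16 (R 4.3.3), TMM scaling and the two-sided quasi-likelihood test, as 1 mean per group. The fit had 8 residual and 6.77 prior degrees of freedom, and Benjamini-Hochberg adjusted p under 0.05 was a call. Ratios of raw counts were tested by exact permutation over 400 arrangements (Python 3.11.15), adjusted over 6 tests. Alternatives used limma 3.58.1 on log2 of the authors' signals, DESeq2 1.42.0, other scalings, filters, a background subtraction, a replicate block, a lane term and each library left out. The scripts were tested on simulated data.

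The members, lists and naming rule were chosen with earlier results of these data known. The rule names the 3 members, the 3 miRNAs nearest to each by correlation of log2 CPM (prior count 2), and from the insulin list the called ones, up to 5 per direction, or else the 1 of smallest p. Same-numbered libraries of insulin and vehicle deviated together (r over 0.1) in 3 of 3 pairs at 24 h, so the numbers were taken to pair them there, and in 2 of 3 at 4 h. Between 24 h and 4 h they did so in 1 of 3 pairs in insulin and 0 of 3 in vehicle, so no pairing was taken across times. The 3 pairs at 24 h also sat in adjacent lanes. Replicates of a group differed beyond sampling noise (chi-square per degree of freedom 2.65 to 72.2) and none was merged.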

Additional observations from a re-analysis of the deposited data

How the results depend on the processing

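The averaged time differences of miR-29b and miR-29c kept their direction under all 12 alternatives and were past the threshold in 10 and 8 of them. Insulin comparisons gave 0 calls under each alternative. The lane covariate was chosen after the data were seen, and within each group it is equally a trend over replicate number.

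Values that crossed 0, none of them past the threshold, were as follows. For miR-29c in insulin at 4 h they were -0.077 with scaling to the 100 most abundant miRNAs, -0.072 with positive controls, -0.018 with background subtracted, -0.0061 with a mean count of at least 100, -0.080 in limma and -0.057 with lane. For miR-29a and miR-29b in insulin at 24 h they were -0.021 and -0.0067 with the 100 most abundant, -0.28 and -0.33 with housekeeping mRNAs, -0.070 and -0.012 with positive controls, -0.048 and -0.021 with the higher count minimum, and -0.039 and -0.010 in limma. Lane gave -0.13 for miR-29b there. Housekeeping scaling gave -0.17 for miR-29c at 24 h, -0.22 and -0.19 for the response differences of miR-29a and miR-29c, and -0.10 for miR-29a between times in insulin. Without a filter miR-29a had 0.049 at 4 h and -0.046 for the response difference.

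Between times in insulin, miR-29c lost its call with RLE size factors (0.70), housekeeping mRNAs (0.18), positive controls (0.67), background subtraction (0.89), no filter (0.68), limma (0.66) and lane (0.29). miR-29b gained a call there with the 100 most abundant (1.09) and DESeq2 (1.08), and with lane it was -0.031. In vehicle, miR-29b gained one with the 100 most abundant (1.29), the higher count minimum (1.31) and DESeq2 (1.35), and miR-29c with DESeq2 (0.56). Averaged, miR-29b lost its call with housekeeping mRNAs (0.86) and lane (0.082), and miR-29c with housekeeping mRNAs (0.28), positive controls (0.55), no filter (0.64) and lane (0.18). The cause was not tested.

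The 7 calls in insulin became 2 with RLE, positive controls or background subtraction, 15 with the 100 most abundant, 16 with housekeeping mRNAs, 11 with TMM without the miR-29 probes, 1 without a filter, 13 with the higher count minimum, 21 in DESeq2, and 0 in limma or with lane. The 0 in vehicle became 9 with the 100 most abundant, 1 with positive controls, 7 with the higher count minimum and 15 in DESeq2. The 30 averaged calls became 17 with housekeeping mRNAs or positive controls, 9 without a filter and 0 with lane.

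The replicate numbers met the pairing criterion only for insulin against vehicle at 24 h (r 0.31 to 0.59). The replicate block fitted 1 effect per replicate number, shared by all 4 groups, and changed no call there. That block is not a test paired at 24 h alone, and no such test was run. The numbers did not meet the criterion at 4 h (r -0.30 to 0.74) or between times (insulin -0.35 to 0.21, vehicle -0.21 to 0.09). Yet 9 of 12 libraries correlated best with their own number, a hint from the data only. With the replicate block, miR-29b was called between times in insulin (1.25) and in vehicle (1.47), with 18 and 10 calls over all miRNAs. The ratio differences of 1.07 for miR-29b over miR-29a and 0.71 for miR-29b over miR-29c each had an exact adjusted p of 0.0938 there. Their unadjusted p of 0.03125 is the smallest that sign changes over 6 pairs can give, so this test says nothing about their stability.

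Leaving out 1 library gave, for miR-29a, miR-29b and miR-29c, -0.12 to 0.11, -0.075 to 0.77 and -0.14 to 0.14 for insulin at 4 h, and -0.16 to 0.24, -0.049 to 0.16 and 0.10 to 0.36 at 24 h. Response differences were -0.13 to 0.27, -0.70 to 0.15 and 0.06 to 0.37. Between times they were 0.13 to 0.52, 0.85 to 1.51 and 0.62 to 0.93 in insulin, 0.18 to 0.30, 1.02 to 1.85 and 0.45 to 0.67 in vehicle, and 0.19 to 0.39, 1.04 to 1.49 and 0.58 to 0.75 averaged. Calls numbered 0 to 22 in insulin, 0 to 12 in vehicle and 12 to 52 averaged; the 52 came without insulin 24 h replicate 1, and the 12 without vehicle 24 h replicate 2 or 3. Averaged calls were also 15 without insulin 4 h replicate 2, 16 without insulin 24 h replicate 2 and 19 without vehicle 4 h replicate 1, and the 12 in vehicle came without vehicle 4 h replicate 3. Time differences of the ratios were 0.88 to 1.24 for miR-29b over miR-29a, 0.26 to 0.53 for miR-29c over miR-29a and 0.53 to 0.86 for miR-29b over miR-29c. For insulin the ratios had 0.01 to 0.37, 0.03 to 0.30 and -0.11 to 0.22.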
